A study of Mus musculus with 4 samples.

Results

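Wnt ligands, their receptors and their secreted inhibitors were examined in PyMT-A, a mouse mammary tumour cell line of the FVB/NJ strain. Genes were taken by symbol from the count table: Wnt, Fzd, Sfrp and Dkk followed by a number (with at most 1 letter after it for Wnt), and 13 receptors, inhibitors, ligases and feedback genes by name, which gave 49 of 33677 genes. RNA was sequenced from cells infected with PMSCV-puro virus, the control (vector), and from cells that received PMSCV-Jagged1 virus (Jagged1 cells), with 2 libraries of each. Both lines were grown in culture with serum, and both carry a virus, so no library comes from uninfected cells. Whether each infected line was 1 clone or a pool is not given in the sources used here, nor is whether the 2 libraries of a line were separate cultures, so p-values reflect spread among libraries that may be technical and nothing wider.

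Wnt proteins are secreted, lipid-modified ligands. They bind Frizzled receptors together with the co-receptors Lrp5 or Lrp6, which stabilises beta-catenin and switches on target genes through TCF and LEF factors. Other receptors, among them Ror1, Ror2 and Ryk, carry signals that do not need beta-catenin. Sfrp, Dkk, Wif1 and Notum proteins are released from cells and block the ligands or their receptors, while the ligases Znrf3 and Rnf43 remove Frizzled receptors from the surface unless R-spondins, acting through the Lgr receptors, prevent it. In the mammary gland, Wnt signals support stem cells and branching, and Wnt1 was found as a site of mouse mammary tumour virus insertion.

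Total counts were between 12136227 and 20835208 reads per library. Levels are given as CPM, read counts scaled to library size by TMM factors. The floor, set at 3 reads in a library, was 0.145 to 0.244 CPM and covers counting error only. Jag1, the gene the virus delivers, had 159 and 112 reads in vector against 5676 and 4493 in Jagged1 libraries (log2 fold change 4.93 ± 0.20, SE; adjusted p = 0.0111, edgeR). It was the 1 gene of 13299 tested that passed an adjusted p of 0.05 (0.00752% of tested genes), and without vector 1 or vector 2 its adjusted p was 0.24 and 0.153. The epithelial markers Epcam (836 to 965 CPM) and Krt8 (766 to 1190 CPM) were high in every library, while Krt19 was read 0, 0, 1 and 0 times. Library Jagged1 2 stood apart in collagen genes. The 8 fibroblast markers summed to 4.63 and 7.25 CPM in vector 1 and 2 and 10.3 CPM in Jagged1 1, against 62.5 CPM in Jagged1 2, most of it from Col1a1 (27.2 CPM), Col1a2 (20.2 CPM) and Col3a1 (5.99 CPM).

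Of the 49 genes, 36 had at least 1 read and 13 were at 0 in all 4 libraries. Enough reads for a test were present for 24 genes, those that passed the low-count filter of edgeR (filterByExpr, minimum count 10). Among these 24, 0 passed an adjusted p of 0.05 in edgeR's quasi-likelihood test, in which p-values were adjusted over all 13299 genes, against 0.00752% of all tested genes. At an unadjusted p under 0.05 stood 6 of the 24 (25.0%), against 3.96% of all tested genes. Of these 6, Fzd3, Ror1, Fzd2 and Lgr4 were higher in Jagged1 cells, as were 1.8% of all tested genes, and Wnt7a and Wnt7b lower, as were 2.15%. DESeq2 called 1 member, Wnt7a, where it called 0.302% of all genes it tested, and limma-voom called 0, where it called 0.00752%. In 8 of the 24 genes the lower Jagged1 library exceeded the higher vector library (33.3%), and 13.9% of all tested genes did so. In 2 (8.33%) the reverse held, and 15.1% of all tested genes did so. The median log2 fold change of the 24 was 0.15, beside 0.00 over all tested genes. Signs were positive for 17 of the 24 (70.8%), against 49.5% of all tested genes.

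**Figure D1:**
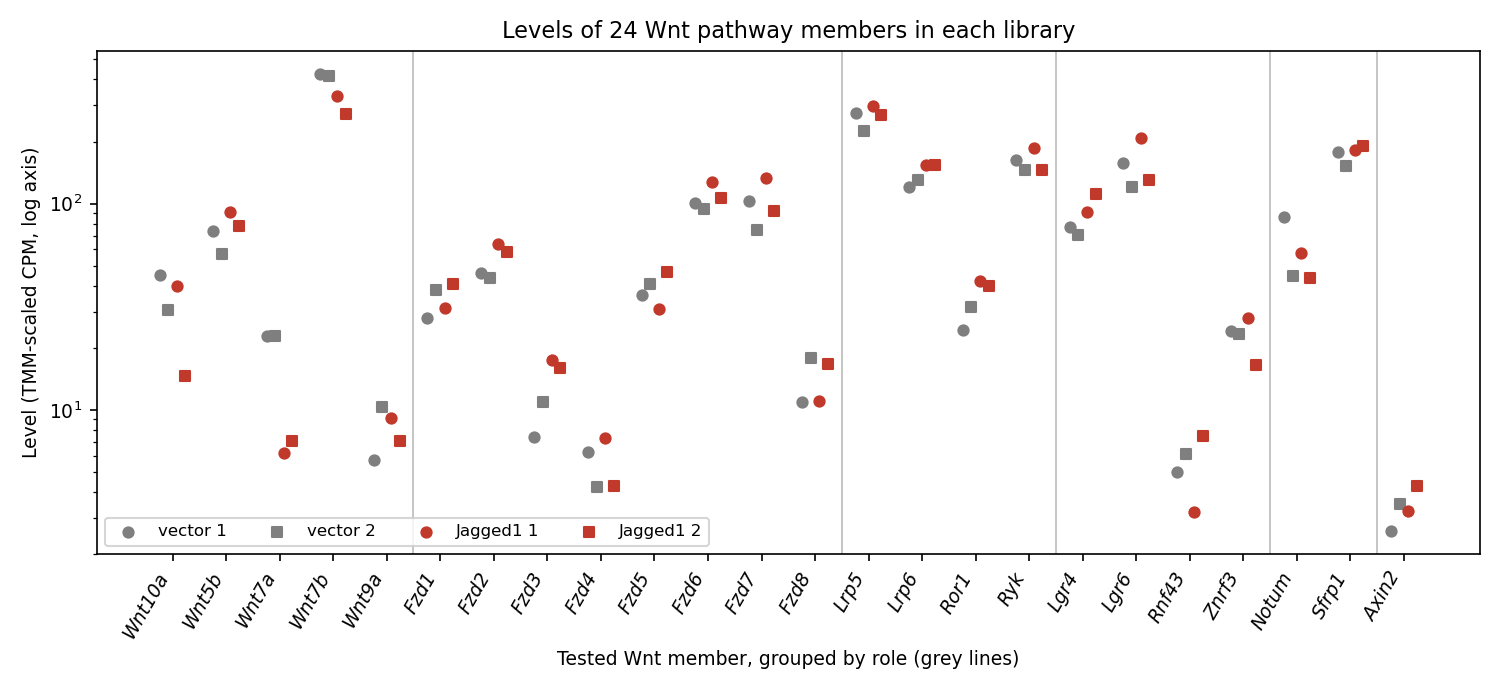
Level of each tested gene in each library, as TMM-scaled CPM on a log axis, with grey points for vector and red points for Jagged1 libraries (circles for library 1 and squares for library 2) and grey lines between the roles, which run from ligands to Frizzled receptors, co-receptors, R-spondin receptors and ligases, secreted inhibitors and Axin2. The Wnt7a points of the Jagged1 libraries, at 6.19 and 7.08 CPM, lie well below those of vector, at 22.9 and 22.8 CPM, while most other genes keep their points close together.

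The largest difference among the 24 tested members was in Wnt7a, and Dkk2 was read in the Jagged1 libraries alone. The bases upstream of these 2 genes, a pair chosen after their values were seen, are shown. Both are the 250 bases before the RefSeq transcription start (GRCm38.p6, 5′ to 3′ on the strand of the gene). The Wnt7a sequence is chr6:91411354-91411603 on the minus strand and the Dkk2 sequence is chr3:132085042-132085291 on the plus strand. Capitals mark the GC box letters GGGCGG, on either strand, and the TATA box letters TATAAA, on either strand.
Wnt7a: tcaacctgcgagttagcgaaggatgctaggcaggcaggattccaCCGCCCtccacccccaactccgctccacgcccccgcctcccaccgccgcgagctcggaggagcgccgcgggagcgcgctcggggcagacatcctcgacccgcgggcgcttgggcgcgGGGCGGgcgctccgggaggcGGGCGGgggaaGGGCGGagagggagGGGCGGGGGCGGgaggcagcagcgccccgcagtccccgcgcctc
Dkk2: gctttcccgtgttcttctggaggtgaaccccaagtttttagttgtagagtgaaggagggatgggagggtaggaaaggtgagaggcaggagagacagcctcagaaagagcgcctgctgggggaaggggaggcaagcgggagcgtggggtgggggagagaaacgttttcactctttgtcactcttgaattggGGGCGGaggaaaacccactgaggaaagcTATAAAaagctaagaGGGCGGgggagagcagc
The Wnt7a window held 6 GC boxes, no TATA box and 34 CpG pairs, and 77.6% of its bases were G or C. Of all 32851 windows in the same table, 2.35% were at least as rich in G and C, and the median was 52.4%. Such richness was not particular to Wnt7a among the members. The windows of Wnt3a (87.6%), Wnt4 (85.2%), Wnt9a (84.4%), Wnt2b (80.8%) and Wnt6 (79.6%) were richer. The Dkk2 window was 55.6% G or C, with 7 CpG pairs and 2 GC boxes, and its 1 TATA box began 32 bases before the start. GC boxes were found in 32.7% of all windows and in 24 of the 32 members with a window. TATA boxes were found in 12.4% of all windows and in 6 of the 32 members. RBPJ is the DNA-binding factor of the Notch pathway. Its core letters TGGGAA, searched on both strands, were in neither window and in 21.6% of all windows. Of the 32 members with a window, 4 held the RBPJ core in at least 1 window: Lgr6, Wnt5b, Wnt9a and Wnt3. The TCF and LEF letters CTTTGAT or CTTTGTT, searched on both strands, were also in neither window, in 4 of the 32 members (Fzd7, Wnt5b, Wnt11 and Dkk1) and in 8.06% of all windows. The 32 members have 36 windows, so counts by member and shares by window are unlike measures. These matches describe letters only.

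Transcripts of 5 ligands, Wnt7b, Wnt5b, Wnt10a, Wnt7a and Wnt9a, passed the filter out of 18 ligand genes in the table. The symbol Wnt2 was not in the table, so that ligand has no value here. Per length, as CPM per kilobase of exon in the GENCODE M21 annotation, the order in vector cells was Wnt7b (86.1), Wnt5b (24.6), Wnt10a (15.4), Wnt7a (7.21) and Wnt9a (2.40). In that order the 2 vector libraries of neighbouring ligands did not overlap. In Jagged1 cells the order was Wnt7b (61.6), Wnt5b (31.9), Wnt10a (11.1), Wnt9a (2.44) and Wnt7a (2.09), and the libraries of the last 2 overlapped, with Wnt9a at 2.75 and 2.13 and Wnt7a at 1.95 and 2.23 CPM per kilobase.

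Wnt7a encodes a ligand known from limb and female reproductive tract patterning. Its reads numbered 347 and 280 in vector and 128 and 98 in Jagged1 libraries, that is 22.9 and 22.8 CPM against 6.19 and 7.08 CPM. Both Jagged1 libraries were far below both vector libraries, and the libraries within each line were close to each other. The level went from 22.9 ± 0.0985 CPM in vector to 6.64 ± 0.624 CPM in Jagged1 cells (SD, n = 2 per line), which is 3.45-fold lower. The log2 fold change was -1.79 ± 0.20 (SE), with an unadjusted p of 0.000198, the fifth smallest of all tested genes, and an edgeR adjusted p of 0.46. The call depended on the test. The adjusted p was 2.89e-05 with DESeq2, which called 0.302% of the genes it tested, and 8.57e-07 with edgeR without the low-count filter, which called 0.686%, but 0.649 with limma-voom. It also depended on the libraries, with an edgeR adjusted p of 0.00313 without Jagged1 1 (a fit that called 1.38% of genes), 0.025 without Jagged1 2 (0.352%), and 1 and 0.943 without vector 1 and vector 2 (0% each). With the replicate number as a block, which called 0.128% of genes, it was 0.0353. The fold change itself lay between -1.88 and -1.69 when 1 library was left out. Wnt7a lies on the minus strand of chromosome 6, from 91363981 to 91411363 (GRCm38), and none of its exons overlaps an exon of another annotated gene.

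Wnt7b, the close relative of Wnt7a and the most abundant ligand per length, was at 427 and 416 CPM in the vector libraries and at 332 and 271 CPM in the Jagged1 libraries. Here too both Jagged1 libraries were lower, by a smaller factor. The log2 fold change was -0.48 ± 0.17 (SE; unadjusted p = 0.032, adjusted p = 1, edgeR). The gene lies on the minus strand of chromosome 15, from 85535437 to 85582473, and shares exon bases with the antisense gene AU022754. The strand setting of the counting is not given, so reads of the pair cannot be told apart.

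Wnt5b, a ligand that mostly signals without beta-catenin, was at 73.9 and 56.8 CPM in vector and 91.3 and 78.3 CPM in Jagged1 libraries. The lines did not overlap, but the gap between vector 1 and Jagged1 2 was smaller than the gap within either line (log2 fold change 0.37 ± 0.19, SE; adjusted p = 1, edgeR). Wnt10a, which acts in skin appendages and teeth, was at 45.3 and 30.6 CPM in vector and 40.1 and 14.6 CPM in Jagged1 libraries. Library 2 was the lower of the 2 in each line, and the lines overlapped. Its log2 fold change, -0.47 ± 0.49 (SE), had an edgeR adjusted p of 1 and was -1.39 without Jagged1 1 (adjusted p = 0.015, a call in a fit that called 1.38% of genes) and 0.08 without Jagged1 2. Wnt9a was at 5.75 and 10.3 CPM in vector and 9.15 and 7.08 CPM in Jagged1 libraries, with no separation of the lines.

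**Figure D2:**
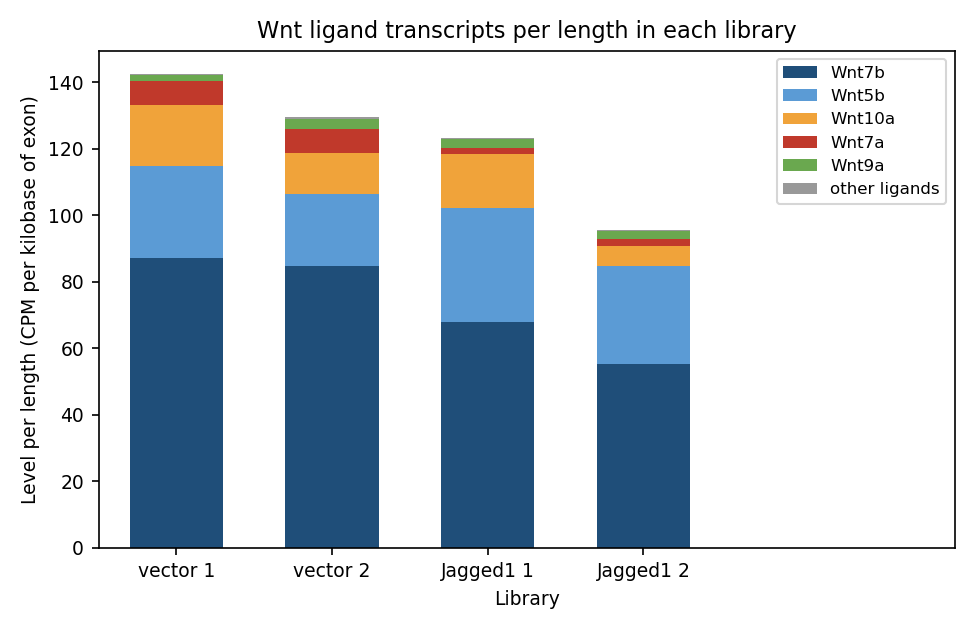
Level of the Wnt ligands per length in each library, in CPM per kilobase of exon, stacked by ligand, with 1 bar per library. The stack is 143 and 130 high in the vector libraries and 123 and 95.6 in the Jagged1 libraries, and the dark blue Wnt7b part is shorter in both Jagged1 bars.

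As a share of the transcripts per length of the 18 ligand genes in the table, Wnt7b made up 61.2 and 65.5% in the vector libraries and 54.9 and 58.0% in the Jagged1 libraries. Wnt5b made up 19.5 and 16.5% in vector and 27.9 and 30.9% in Jagged1 libraries, and Wnt7a 5.07 and 5.55% against 1.58 and 2.33%. In each of these 3 ligands the libraries of the lines did not overlap. They did overlap in Wnt10a (12.9 and 9.57% against 13.2 and 6.18%) and in Wnt9a (1.21 and 2.38% against 2.23 and 2.22%). The shares sum to 100% in each library, so a rise in 1 ligand and a fall in another are not separate results. The summed ligand level was 143 and 130 CPM per kilobase in vector and 123 and 95.6 CPM per kilobase in Jagged1 libraries, which is lower in both Jagged1 libraries. No test was made of these sums and shares, since their genes were chosen together.

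The other ligands had 21 reads or fewer in every library. Wnt1, Wnt3, Wnt3a, Wnt6, Wnt8a, Wnt8b, Wnt9b and Wnt10b had no read in any library, which allows at most 0.145 to 0.244 CPM per library. Wnt6 is the neighbour of Wnt10a on chromosome 1, and Wnt3a the neighbour of Wnt9a on chromosome 11. Wnt2b had 6 and 8 reads in vector and 13 and 6 in Jagged1 libraries, and Wnt11 had 0 and 1 against 4 and 3. Wnt11 shares exon bases with the pseudogene Gm8398. Wnt4, the progesterone-induced ligand of mammary luminal cells, had 4 and 21 reads in vector and 8 and 5 in Jagged1 libraries. Wnt16 had 1 read, in Jagged1 2.

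Frizzled receptors are the main Wnt-binding receptors, and 8 of the 10 genes were tested. Of these, 7 (87.5%, against 49.5% of all tested genes) had positive log2 fold changes and 1 a negative one, with a median of 0.19. Over all genes 0 passed, and 2 (25%, against 3.96%) were at an unadjusted p under 0.05. Per length, Fzd6 (20.3 CPM per kilobase in vector, 24.1 in Jagged1 cells) and Fzd7 (19.6 and 24.8) led, followed by Fzd2 (12.2 and 16.7), and the libraries of Fzd6 and Fzd7 overlapped in both lines. Fzd10 had no read, and Fzd9 had 8 and 5 reads in vector and 13 and 11 in Jagged1 libraries.

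Fzd3, a receptor of planar cell polarity and axon guidance, was at 7.40 and 10.9 CPM in vector and 17.4 and 16 CPM in Jagged1 libraries. The lines did not overlap, and the level was 1.82-fold higher in Jagged1 cells (log2 fold change 0.87 ± 0.26, SE; unadjusted p = 0.0194, adjusted p = 1, edgeR). With 1 library left out this value lay between 0.63 and 1.16. Fzd2 was at 46.1 and 43.5 CPM in vector and 63.6 and 58.4 CPM in Jagged1 libraries, again with no overlap (log2 fold change 0.45 ± 0.15, SE; unadjusted p = 0.0287, adjusted p = 1, edgeR). Fzd6 was at 101 and 94.4 CPM in vector and 127 and 106 CPM in Jagged1 libraries (0.25 ± 0.16, SE), the third Frizzled gene of 8 without overlap (37.5%, against 13.9% of all tested genes). Fzd6 shares exon bases with the long noncoding gene Gm26704, and Fzd5 with Gm38058.

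In the other 5 Frizzled genes the lines overlapped. Fzd7, a receptor of stem cells in several epithelia, was at 103 and 74.7 CPM in vector and 133 and 92.4 CPM in Jagged1 libraries. Library 1 was the higher of the 2 in each line, and the log2 fold change was 0.34 ± 0.25 (SE; adjusted p = 1, edgeR). The reverse order within the lines held for Fzd1, at 28 and 38.1 CPM in vector and 31.3 and 40.7 CPM in Jagged1 libraries. It held also for Fzd5 (36.2 and 40.9, then 31.0 and 46.9 CPM) and for Fzd8 (10.9 and 17.9, then 11.0 and 16.7 CPM). Fzd4 was low, at 6.28 and 4.23 CPM in vector and 7.31 and 4.26 CPM in Jagged1 libraries.

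**Figure D3:**
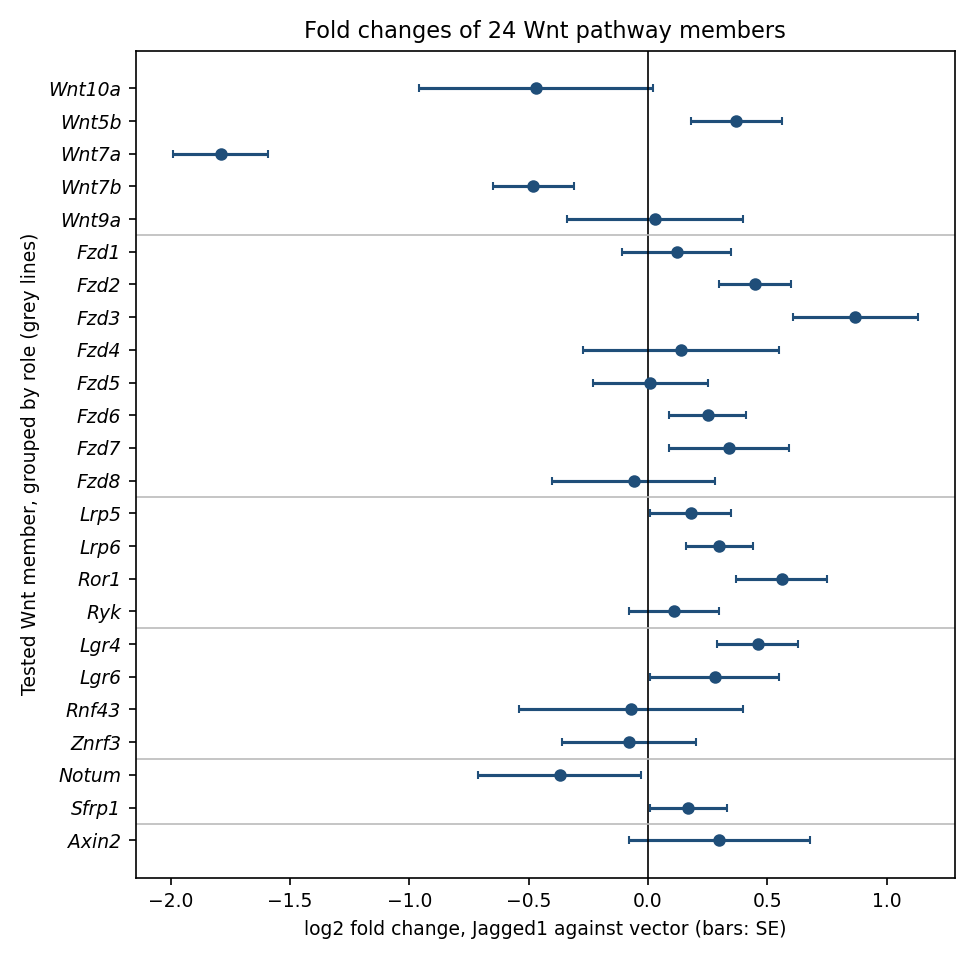
log2 fold change of each tested gene, Jagged1 against vector, with bars for the SE and grey lines between the roles. Wnt7a at -1.79 lies apart from the other 23 genes, which lie between -0.48 and 0.87.

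All 4 tested co-receptors had positive values, as did 49.5% of all tested genes, with a median log2 fold change of 0.24. Over all genes 0 passed, and 1 of the 4 (25%, against 3.96%) was at an unadjusted p under 0.05. Ror1, a receptor tyrosine kinase that binds Wnt5 ligands, was at 24.5 and 31.4 CPM in vector and 42.4 and 40.0 CPM in Jagged1 libraries. Both Jagged1 libraries were higher (log2 fold change 0.56 ± 0.19, SE; unadjusted p = 0.0274, adjusted p = 1, edgeR), with values between 0.41 and 0.75 when 1 library was left out. Lrp6 was at 121 and 130 CPM in vector and at 154 CPM in both Jagged1 libraries (0.30 ± 0.14, SE; adjusted p = 1, edgeR), again without overlap. Its partner Lrp5 was at 274 and 225 CPM in vector and 298 and 268 CPM in Jagged1 libraries, and Ryk, a receptor with an inactive kinase domain, was at 163 and 145 against 187 and 145 CPM. Per length, Ryk was the highest co-receptor (34.0 CPM per kilobase in vector and 36.7 in Jagged1 cells), and its log2 fold change was 0.11 ± 0.19 (SE; adjusted p = 1, edgeR). Ror2 had 0, 0, 0 and 3 reads.

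R-spondin receptors were carried by Lgr4 and Lgr6, while Lgr5, the stem cell marker of the intestine, had 0, 2, 0 and 0 reads. Lgr4 was at 76.7 and 70.9 CPM in vector and 91.5 and 112 CPM in Jagged1 libraries, both higher (log2 fold change 0.46 ± 0.17, SE; unadjusted p = 0.0376, adjusted p = 1, edgeR). Lgr6 had the highest mean of this group per length (20.3 CPM per kilobase in vector and 24.7 in Jagged1 cells), though in Jagged1 2 Lgr4 was level with it. Lgr6 was at 157 and 121 CPM in vector and 208 and 130 CPM in Jagged1 libraries, with overlap (0.28 ± 0.27, SE; adjusted p = 1, edgeR). The receptor-removing ligases did not separate the lines. Znrf3 was at 24.1 and 23.3 CPM in vector and 27.9 and 16.6 CPM in Jagged1 libraries, and Rnf43 at 5.02 and 6.11 against 3.19 and 7.44 CPM. The R-spondins themselves were scarce: of 4 genes, Rspo3 alone had reads (5 and 7 in vector, 6 and 15 in Jagged1 libraries).

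Among 10 secreted inhibitors, Sfrp1 and Notum were tested. Sfrp1, a decoy that binds Wnt ligands, was the highest of the inhibitors per length in each library (mean 37.9 CPM per kilobase in vector and 42.6 in Jagged1 cells). Its levels were 179 and 153 CPM in vector and 182 and 191 CPM in Jagged1 libraries. The lines did not overlap, by a margin smaller than the gap within vector (log2 fold change 0.17 ± 0.16, SE; adjusted p = 1, edgeR). Notum, an esterase that removes the lipid from Wnt proteins and is itself a Wnt target, was at 86.1 and 44.5 CPM in vector and 57.5 and 43.6 CPM in Jagged1 libraries. Library 1 was higher in each line, and the log2 fold change, -0.37 ± 0.34 (SE), had an edgeR adjusted p of 1 and was 0.21 without vector 1 and -0.77 without vector 2. Notum shares exon bases with the antisense genes Notumos and Myadml2os, whose reads cannot be told apart from its own. Dkk1, Dkk3, Dkk4 and Sfrp4 had no read, Sfrp5 had 1 and Sfrp2 had 2 (both in Jagged1 2), and Wif1 had 2 and 8 reads in vector and 7 and 5 in Jagged1 libraries.

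Dkk2, which binds Lrp5 and Lrp6, was read 0 times in both vector libraries, 6 times in Jagged1 1 and 39 times in Jagged1 2. It was too low for the filter and has no value in that test. Against a floor of 3 reads per vector library its mean of 1.55 CPM in Jagged1 cells was at least 7.02-fold higher. This rests on Jagged1 2, at 2.82 CPM, since Jagged1 1 alone, at 0.290 CPM, was 1.31 times that floor. Without the low-count filter Dkk2 passed over all genes in edgeR (adjusted p = 5.2e-05), in a fit that called 0.686% of genes. With DESeq2, which called 0.302%, it did not (adjusted p = 0.141). Without Jagged1 1, where Jagged1 2 is the lone library of its line, the log2 fold change of Dkk2 was 8.28, against 0 reads in vector. Without Jagged1 2 it was not tested.

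Reads of Wnt5a, the best known ligand of Ror receptors, came from Jagged1 2 alone (0, 0, 0 and 15 reads), as did the few of Ror2 and Sfrp2 given above. Wnt5a shares exon bases with the antisense gene Gm2670, and Sfrp2 with the antisense gene Gm26771. With the strand setting not given, reads of each pair cannot be told apart. Jagged1 2 also held the reads of the collagen genes Col1a2 (0, 0, 0 and 280) and Col3a1 (0, 0, 0 and 83) and of the cadherin gene Cdh11 (0, 0, 0 and 70). Cdh11 is also on the list of Wnt target genes used here. Without Jagged1 1, where Jagged1 2 is the lone library of its line, its log2 fold change was 9.12, against 0 reads in vector. Without Jagged1 2 it had no read. Col1a1 was read 16, 24, 36 and 376 times and the proteoglycan gene Dcn 0, 0, 6 and 23 times. Of the 8 fibroblast markers 7 had reads and Lum had none in any library, and not all of them followed Jagged1 2: Pdgfra was at 3.37, 4.97, 8.03 and 6.72 CPM and Thy1 was read 0, 1, 0 and 0 times. The 8 macrophage markers summed to 210, 239, 174 and 397 CPM, nearly all from Cd14 (208, 228, 173 and 386 CPM). Within that list Lyz2 (0, 71, 0 and 89 reads) and Adgre1 (0, 6, 0 and 16 reads) were read in library 2 of each line alone, while the pan-leukocyte gene Ptprc had 1, 1, 0 and 1 reads. The 7 basal markers summed to 460, 234, 751 and 381 CPM, led by Krt14, which was highest in Jagged1 1 (453, 225, 741 and 357 CPM), while Trp63 was highest in Jagged1 2 (5.88, 7.57, 7.21 and 19.7 CPM). The 6 endothelial markers summed to 0.793, 2.93, 0.581 and 6.35 CPM, led by Cdh5 (6, 32, 10 and 84 reads), and Emcn had no read. Adgra2, a co-receptor for Wnt7 ligands on endothelial cells, was read 15, 10, 19 and 161 times. Its log2 fold change, 2.76 ± 1.17 (SE), had an edgeR adjusted p of 1. It was 0.02 without Jagged1 2 and 3.66 without Jagged1 1, where Jagged1 2 is the lone library of its line. The part of these markers in the Dkk2, Wnt5a, Cdh11 and Adgra2 values was not tested. In bulk RNA, few cells with many transcripts and many cells with few cannot be told apart.

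**Figure D4:**
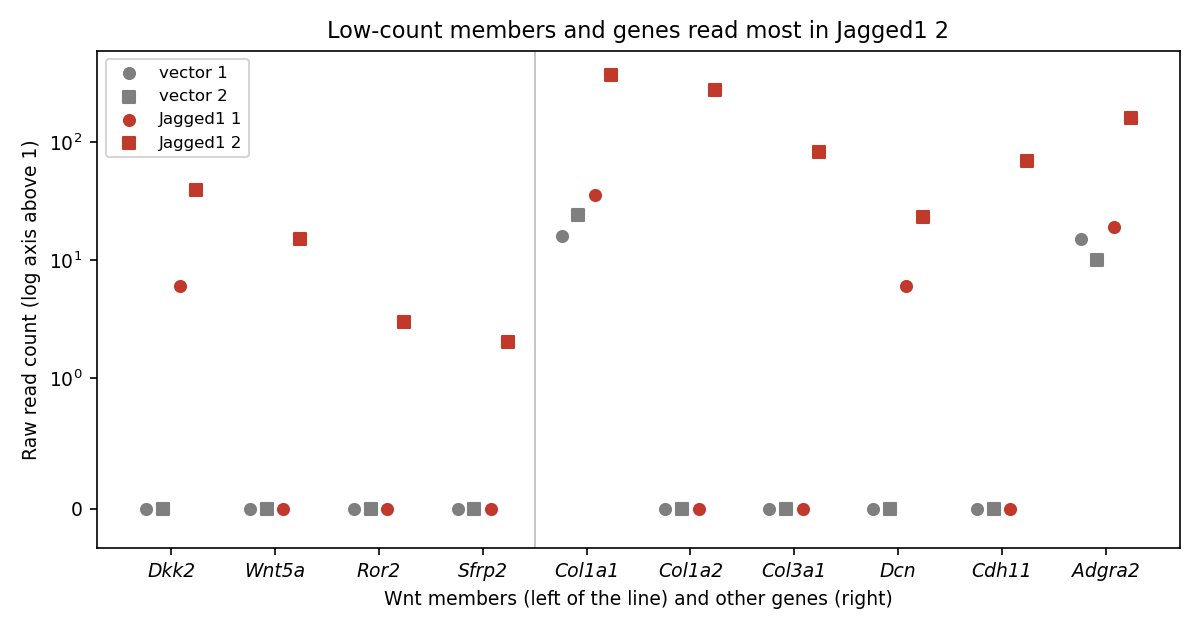
Raw read counts per library, on an axis that is logarithmic above 1 and linear below, for 4 Wnt members (left of the line) and 6 other genes (right), with grey vector and red Jagged1 points, circles for library 1 and squares for library 2. The 10 genes were picked for being read most in Jagged1 2, so its red square is the top point for each by choice. It stands at 39 reads for Dkk2 and 280 for Col1a2, where both vector libraries are at 0. Low-count members that were highest in another library, such as Wnt2b and Wnt4, are not shown.

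Axin2, the negative regulator that beta-catenin induces in most tissues, was low, at 0.552 CPM per kilobase in vector and 0.681 in Jagged1 cells. Its levels were 2.58 and 3.5 CPM in vector and 3.24 and 4.26 CPM in Jagged1 libraries, which overlapped (log2 fold change 0.30 ± 0.38, SE; adjusted p = 1, edgeR). With 39 to 67 reads per library its value moved between 0.10 and 0.53 when 1 library was left out. Axin2 shares exon bases with the antisense gene Gm11670, and with the strand setting not given, reads of the pair cannot be told apart. Of the other common targets, Nkd1 had 0, 1, 1 and 0 reads and Lef1 1, 0, 0 and 1, while Nkd2, a relative of Nkd1, was at 113 and 87.4 CPM in vector and 162 and 79.5 CPM in Jagged1 libraries. Nkd1 and Lef1 were thus below the floor in every library, and Axin2, Notum and Nkd2 were above it.

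Further genes of the pathway were taken from a list of 135, of which 133 were in the table and 96 were tested. Of the 96, 0 passed over all genes in edgeR (5 higher and 3 lower at an unadjusted p under 0.05, 8.33% against 3.96% of all tested genes), and the median log2 fold change was 0.05, beside 0.00 over all tested genes. DESeq2 called 1, Wisp2, against 0.302% of all genes it tested, and edgeR without the low-count filter 3, Wisp2, Fosl1 and Adgra2, against 0.686%. For secretion of the ligands, Wls, their carrier, was at 142 and 186 CPM in vector and 165 and 192 CPM in Jagged1 libraries, and Porcn, which adds the lipid, at 4.63 and 4.56 against 4.36 and 4.19 CPM. Dishevelled and the destruction complex, which degrades beta-catenin, gave 20 tested genes. Of these, 11 were higher (55%, against 49.5% of all tested genes) and 9 lower, with a median of 0.03. Of 28 tested genes of planar polarity and other branches, 18 were higher (64.3%, against 49.5%) and 10 lower, with a median of 0.03. At an unadjusted p under 0.05 were 0 of them, against 3.96% of all tested genes.

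In the nucleus, 14 of 17 tested genes (82.4%, against 49.5% of all tested genes) had positive values, with a median of 0.15. At an unadjusted p under 0.05 in edgeR were 3 (17.6%, against 3.96%). Both Jagged1 libraries were higher in 7 of the 17 (41.2%, against 13.9% of all tested genes), among them these 3 and Ctnnb1. In 1 both were lower (5.88%, against 15.1%). Ctnnb1, the gene of beta-catenin, was at 722 and 743 CPM in vector and 747 and 941 CPM in Jagged1 libraries (log2 fold change 0.20 ± 0.18, SE; adjusted p = 1, edgeR). Tcf7l1, mostly a repressor of target genes, was at 5.95 and 6.19 CPM in vector and 13.3 and 8.59 CPM in Jagged1 libraries. Both Jagged1 libraries were higher, as they were for Tcf7l2, its relative (12.9 and 16.8 against 20.2 and 26.8 CPM), and for the co-repressor gene Tle3 (89.0 and 63.8 against 123 and 118 CPM). Their log2 fold changes were 0.85 ± 0.31, 0.66 ± 0.24 and 0.65 ± 0.20 (SE) in that order, each with an adjusted p of 1 in edgeR. Tcf7 was at 19.5 and 19.6 CPM in vector and 21.5 and 15.8 CPM in Jagged1 libraries.

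Of 14 tested target genes, 7 were higher (50%, against 49.5% of all tested genes) and 7 lower, with a median of -0.13. At an unadjusted p under 0.05 in edgeR were 5 of them (35.7%, against 3.96%), 2 higher and 3 lower. Wisp2, a secreted matricellular gene first found downstream of Wnt1, was at 1.19 and 5.70 CPM in vector and 13.1 and 20.4 CPM in Jagged1 libraries. All the Jagged1 values were above the vector values, and vector 1 was far below vector 2 (log2 fold change 2.29 ± 0.71, SE; adjusted p = 1, edgeR; 0.0402 with DESeq2). Without vector 1 the value was 1.57 and without vector 2 it was 3.79. Its relative Wisp1 was at 1.45 and 1.22 CPM in vector and 3 and 3.11 CPM in Jagged1 libraries (1.18 ± 0.39, SE; adjusted p = 1, edgeR). Of the 14, 3 were higher in both Jagged1 libraries (21.4%, against 13.9% of all tested genes): Wisp2, Wisp1 and Sox9. Sox9 (313 and 287 against 324 and 391 CPM) is named here after its values were seen. Lower in both were 6 (42.9%, against 15.1%), 3 of them at an unadjusted p under 0.05. These 3 were Ccnd1, the gene of cyclin D1 (941 and 842 against 565 and 492 CPM), Fosl1, of AP-1 (31.4 and 32.5 against 19.0 and 12.2 CPM), and Klf5 (83.9 and 70.0 against 55.2 and 51.6 CPM). Their log2 fold changes were -0.75 ± 0.17, -1.03 ± 0.25 and -0.53 ± 0.17 (SE), with edgeR adjusted p-values of 0.914, 0.923 and 1. The other 3 were Cd44 (512 and 520 against 463 and 394 CPM), Twist1 (43.5 and 42.8 against 36.8 and 33.7 CPM) and Edn1 (45 and 44.3 against 31.9 and 41.5 CPM), named here after their values were seen. The log2 fold change of Fosl1 was -1.39 without Jagged1 1 and -0.75 without Jagged1 2.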

How the data were processed

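Poly(A) RNA of 4 cell line libraries was sequenced. The deposited table holds unnormalized read counts for each gene and library, made with STAR 2.6.0c and featureCounts 1.6.2 on mm10 (GRCm38), per the submitters' processing notes. Neither the annotation release nor the strand setting is given in the sources used here. Libraries were grouped by title. Of 33677 genes, 9024 were at 0 throughout, and 27 names turned into dates are not reported by name. The low-count filter (filterByExpr, minimum count 10) kept 13299 genes, which were scaled by TMM and tested with the quasi-likelihood F test of edgeR 4.0.16 (robust, R 4.3.3), with Benjamini-Hochberg adjustment over all tested genes and a threshold of 0.05. SE was derived from each log2 fold change and its F value. The fits were tried on simulated data that varied less between libraries than these data, so their power here was not measured. No permutation test was run, since an exact two-sided one on 2 libraries per line gives p = 0.333 at best. Exon lengths and coordinates came from GENCODE M21 (GRCm38), which matched all 49 members. Promoter windows came from RefSeq. Alternatives were DESeq2 1.42.0, limma-voom (limma 3.58.1), DESeq2 size factors in edgeR, 2 other filters, the replicate number as a block, and leaving out each library. Every tested member is given with its 4 values, and log2 fold change and SE for members whose lines did not overlap, members called in any fit, Axin2 and the most abundant member of each role. Of the other pathway genes, those called in any fit or at an unadjusted p under 0.05 are named, with 6 core genes. The members and lists were chosen with earlier results of these data known. Members outside the naming rule whose SE is printed as well were added after their values were seen.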

Additional observations from a re-analysis of the deposited data

How the results depend on the processing

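Calls were few and depended on the fit. Of all genes tested, edgeR called 0.00752%, DESeq2 0.302% and the fit without a low-count filter 0.686%. The main fit tested 24 members, and the members tested differed between fits. Some below the filter, such as Dkk2, entered DESeq2 and the fit without it, so counts of calls are not on a common base. Over all genes 1 passed; DESeq2 called 47, the fit without a low-count filter 169, and fits without 1 library 0 to 193. Of the members 0 passed in the main fit, DESeq2 called 1 and the fit without a filter 2. Of the other pathway genes 0 passed in the main fit, DESeq2 called 1 and the fit without a filter 3. The replicate block called 17 genes (0.128% of those tested), 1 of them a member, Wnt7a (adjusted p = 0.0353, edgeR), and 0 other pathway genes; the labels do not say that equal numbers were handled together, and deviations of same-numbered libraries correlated at 0.434 across genes. Where 1 library is left out, the lone library of its line is assumed to vary like the others. The median log2 fold change of tested members, 0.15, lay between 0.11 and 0.25 without 1 library and at 0.15 or 0.16 in the other fits. Of 370 alternative values of 37 named genes, 21 changed sign, 2 of them outside the fits that left out a library: Fzd5 was at -0.02 with limma-voom and -0.01 with the replicate block. Without 1 library, ranges that crossed 0 were -0.08 to 0.35 (Fzd1), -0.31 to 0.48 (Fzd4), -0.31 to 0.28 (Fzd5), -0.38 to 0.33 (Fzd8), -0.10 to 0.59 (Lgr6), -0.77 to 0.21 (Notum), -0.80 to 0.42 (Rnf43), -0.09 to 0.28 (Ryk), -0.31 to 0.14 (Tcf7), -0.04 to 0.32 (Wls), -1.39 to 0.08 (Wnt10a), -0.31 to 0.49 (Wnt9a) and -0.51 to 0.24 (Znrf3). The other 13 members kept their sign in every fit that tested them. Members with under 10 reads per library are limited by depth.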
